A study of Mus musculus with 24 samples.

Results

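Cholesterol and fatty acid synthesis is described here through 32 genes: 18 enzymes of sterol synthesis, 6 sterol sensors, regulators and carriers, and 8 enzymes of fatty acid synthesis and desaturation. They were taken by gene symbol, and all 32 were among the 18440 genes of the inner ear table and the 25190 genes of the organoid table. Each of the 32 also passed the filter on low counts in both tables, where 15525 and 15888 genes were tested. Bulk RNA sequencing was done on 24 mouse libraries. The inner ear libraries came from the soft tissue inside the bone of male wild-type mice of the C57BL6/J strain that had no treatment and were 3, 11 or 20 months old (n = 4 mice per age). The organoids were grown in Matrigel from cochlear epithelium of wild-type mice at postnatal day 1 to 2 and differentiated in culture, and the labels give all 4 groups as wild type, with no strain. All were expanded with EGF, bFGF, IGF and the GSK3 inhibitor CHIR99021, and then differentiated with CHIR99021 and the gamma-secretase inhibitor LY411575. They were left as control, given TNF-α (an inflammatory cytokine), given a lentivirus for RBM25 knock down (RBM25 is a splicing regulator that binds RNA), or given both TNF-α and the RBM25 knock down (n = 3 per group). The titles call the depleted organoids KO while the protocol calls them a knock down, and the text follows the protocol. The sources used here do not state the vector given to the controls or the dose and duration of TNF-α. Nothing in the labels says that organoid replicates were separate cultures, so p-values in that experiment measure only the spread between these libraries, which may be technical.

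Cholesterol is built from acetyl-CoA through mevalonate, isoprenoids and squalene to lanosterol, and then through a series of sterol intermediates. Fatty acids are built from the same acetyl-CoA by a carboxylase and a synthase, and are then lengthened and desaturated. The transcription factor SREBP-2, encoded by Srebf2, mainly drives the sterol enzymes, and the SREBP-1 proteins, encoded by Srebf1, mainly drive the fatty acid enzymes. SCAP escorts both to the Golgi for cleavage when sterols are low, and the INSIG proteins hold them back in the endoplasmic reticulum when sterols are high. On many of these promoters SREBPs act together with the CCAAT-binding factor NF-Y and with Sp1, which binds GC boxes. In the inner ear, myelinating Schwann cells are a major site of lipid synthesis, since myelin is rich in cholesterol.

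Promoter sequence, which the choice of members did not use, is described first. In the RefSeq promoter table for GRCm38.p6, 25 of the 32 members had an entry. Those without one were Fdps, Fdft1, Sqle, Stard4, Scd1, Scd2 and Fads1. The 250 bases before the start were searched on both strands for CCAAT, for the GC box GGGCGG and for the sterol regulatory element TCACNCCAC. A gene with several entries was counted if any entry held the motif. CCAAT was found in 14 of 15 sterol enzymes (all but Acat2), 4 of 5 regulators (all but Scap) and 1 of 5 fatty acid enzymes (Fasn). Of 27025 genes with an entry, 37.5% held it. The GC box was found in 14 of 15 sterol enzymes (all but Pmvk), 5 of 5 regulators and 2 of 5 fatty acid enzymes (Acly and Fads2), against 35.4% of genes. The sterol regulatory element in these exact letters was found in Hmgcs1 alone, from 137 to 129 bases before the start, against 1.22% of genes. No match of one motif shared bases with a match of another in these members. A match is a stretch of letters and not a measured binding site.

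Stretches of 110 bases are shown for 6 members, on the strand of the gene. They overlap no GENCODE exon and lie outside the RefSeq span of the gene itself. CCAAT (or ATTGG, the same motif on the other strand) and the sterol regulatory element are in capitals. Each stretch was picked to hold the most matches of these motifs, and on ties the nearest to the start was taken. The number of matches shown is thus set by that choice. Hmgcs1 and Hsd17b7 each had a further CCAAT match nearer the start, outside the stretch. Hmgcs1 is shown for its sterol element, Mvd for its pair of CCAAT boxes on opposite strands, and Lss, Sc5d and Hsd17b7 because their responses to the treatments differed. Elovl6 is shown as the fatty acid enzyme with the highest response to TNF-α, and its stretch holds neither motif.
Hmgcs1, chr13:119690114-119690223, plus strand: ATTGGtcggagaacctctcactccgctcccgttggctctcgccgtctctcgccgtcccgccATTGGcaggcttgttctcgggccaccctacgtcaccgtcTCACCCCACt
Mvd, chr8:122443423-122443532, minus strand: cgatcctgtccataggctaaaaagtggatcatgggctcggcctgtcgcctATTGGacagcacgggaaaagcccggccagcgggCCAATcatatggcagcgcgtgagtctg
Lss, chr10:76531455-76531564, plus strand: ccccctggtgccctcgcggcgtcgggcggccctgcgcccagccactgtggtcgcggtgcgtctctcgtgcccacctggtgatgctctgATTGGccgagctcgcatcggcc
Sc5d, chr9:42264301-42264410, minus strand: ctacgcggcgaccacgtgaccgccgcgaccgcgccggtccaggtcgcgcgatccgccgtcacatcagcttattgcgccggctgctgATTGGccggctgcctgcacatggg
Hsd17b7, chr1:169969261-169969370, minus strand: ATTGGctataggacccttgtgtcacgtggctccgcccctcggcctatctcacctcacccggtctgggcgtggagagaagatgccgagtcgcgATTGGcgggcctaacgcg
Elovl6, chr3:129532147-129532256, plus strand: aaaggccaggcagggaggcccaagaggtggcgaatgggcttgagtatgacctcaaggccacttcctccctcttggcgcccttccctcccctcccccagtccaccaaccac

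Libraries held 30599012 to 38451292 counts in the inner ear and 33802411 to 37048422 in the organoids, so that the lowest member count in any library was 271 reads. Rbm25 itself was at 142 to 148 CPM (counts scaled to the normalised library size) in control organoids and at 92.7 to 96.9 CPM after the knockdown. With TNF-α it was at 150 to 173 against 103 to 122 CPM, so depletion was partial in both arms. TNF-α raised Rbm25, with log2 fold changes of 0.16 (edgeR adjusted p = 0.0315) in intact and 0.23 (0.00471) in depleted organoids. Every library with both treatments lay above those of the knockdown alone. The knockdown effect was -0.61 ± 0.06 (SE) without TNF-α and -0.55 ± 0.06 (SE) with it, and their difference did not pass (edgeR adjusted p = 0.683). TNF-α replicate 1 stood apart in its fibroblast markers, with a mean log2(CPM + 1) over 7 genes of 6.53 against 3.93 and 4.43 in the other TNF-α libraries. In the inner ear, 20 months replicate 2 was low in Schwann cell and myelin markers, with a mean log2(CPM + 1) over 10 genes of 7.91 against 8.55 to 8.65 in the other 20-month libraries. Hair cell and supporting cell markers were present in both tissues, with all 10 and 9 of them counted in every organoid library, and only the hair cell gene Atoh1 at 0 in an inner ear library. In bulk samples, fewer cells of a type and less RNA per cell cannot be told apart.

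On a length-scaled basis the highest levels were those of some fatty acid enzymes, while others of that class were low. Scd2, a stearoyl-CoA desaturase that makes monounsaturated fatty acids, was the highest of the 32 in both tissues, at 388 ± 19.6 FPKM (SD, n = 4) in the inner ear at 3 months and 546 ± 8.23 FPKM (SD, n = 3) in control organoids. In the 3-month inner ear it was followed by its neighbour on chromosome 19, Scd1, at 129 ± 7.25 FPKM, and then by Hmgcs1, Fads1, Insig1, Srebf1 and Acly between 57.4 and 40.3 FPKM, where each overlapped the next in its libraries. In control organoids the order after Scd2 was Fads2 (176 FPKM), Srebf1 (139 FPKM), Fasn (102 FPKM), Fads1 (47.1 FPKM) and Scd1 (44.9 FPKM), and no library of one overlapped the next. The median member level in control organoids was 9.56 FPKM for sterol enzymes, 27.0 FPKM for regulators and 46.0 FPKM for fatty acid enzymes, and in the 3-month inner ear 12.8, 22.9 and 36.8 FPKM. The sterol enzymes ranged from Idi1 at 2.97 FPKM to Sqle at 20.4 FPKM in control organoids, and from Dhcr7 at 5.1 FPKM to Hmgcs1 at 57.4 FPKM in the 3-month inner ear. The lowest fatty acid enzymes were Elovl6 at 4.52 FPKM in control organoids and Acaca at 7.8 FPKM in the 3-month inner ear. The inner ear and organoid tables were normalized separately, so levels are not compared across them. Scd1 and Scd2 are close paralogs, and the sources used here do not state how reads shared between them were counted.

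TNF-α raised most of the sterol enzymes in the organoids and some of the fatty acid enzymes. Of 18 sterol enzymes, 13 rose, 1 fell and 4 did not pass, at an adjusted p under 0.05 over all genes tested. Of 8 fatty acid enzymes, 3 rose, 1 fell and 4 did not pass. Without TNF-α replicate 1, 5 of the 8 rose and 13 of 18 sterol enzymes rose, and the difference between the classes was not tested. Of 6 regulators 2 rose and 2 fell. Over all 32 members, 18 rose and 4 fell, where 23.3% of all genes tested rose and 24.2% fell (47.5% in either direction). The median log2 fold change was 0.44 for sterol enzymes, 0.14 for fatty acid enzymes and 0.05 for regulators, against -0.02 over all genes.

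In the early, mevalonate part of the pathway, Hmgcs1, which joins acetoacetyl-CoA and acetyl-CoA into HMG-CoA, was at 87.4, 89.7 and 86.6 CPM in control and 144, 135 and 138 CPM with TNF-α. The groups did not overlap, and the log2 fold change was 0.67 ± 0.05 (SE; adjusted p = 6.99e-09). Fdps, which makes farnesyl diphosphate, was at 22.3, 21.3 and 23.5 CPM in control and 41.3, 35.5 and 35.1 CPM with TNF-α (log2 fold change 0.74 ± 0.08 SE; adjusted p = 3.91e-07). Every treated library of both genes lay above every control. Fdps shares 26.7% of its exon bases with Gm43738 and Hmgcs1 12.1% with Gm48342, so part of their counts is uncertain. The other early enzymes gave log2 fold changes from 0.04 for the kinase Pmvk to 1.04 for the isomerase Idi1, the highest of any sterol enzyme, and Acat2, Mvd and Idi1 passed the test while Mvk and Pmvk did not. Idi1 is named here outside the rule for named genes, after its value was seen.

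Further along, Sqle, the squalene epoxidase that catalyses the first oxygen-dependent step, was at 54.9, 60.0 and 58.1 CPM in control and 108, 107 and 94.8 CPM with TNF-α (log2 fold change 0.84 ± 0.06 SE; adjusted p = 9.74e-10). Cyp51, the lanosterol demethylase, was at 34.0, 35.3 and 35.3 CPM in control and 61.8, 52.8 and 52.2 CPM with TNF-α (log2 fold change 0.67 ± 0.06 SE; adjusted p = 4.19e-08). Sc5d, a late sterol desaturase, was at 39.8, 39.3 and 40.7 CPM in control and 71.9, 67.2 and 68.1 CPM with TNF-α (log2 fold change 0.79 ± 0.05 SE; adjusted p = 3.98e-10). For these 3 enzymes too the treated libraries all lay above the controls. Hsd17b7, a sterol ketone reductase, was at 21.7, 19.6 and 21.8 CPM in control and 32.7, 28.6 and 30.5 CPM with TNF-α (log2 fold change 0.54 ± 0.06 SE; adjusted p = 1.24e-06). Lss, which closes squalene epoxide into lanosterol, was at 43.4, 43.0 and 44.0 CPM in control and 56.4, 51.6 and 51.7 CPM with TNF-α (log2 fold change 0.29 ± 0.06 SE; adjusted p = 0.000235). Both were again higher in every treated library. Msmo1, Nsdhl and Ebp also rose, with log2 fold changes of 0.26 to 0.67, the reductase Tm7sf2 fell by 0.24 on the log2 scale, and Fdft1 and Dhcr7 did not pass, at 0.06 and 0.13.

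The regulators did not move in 1 direction with TNF-α: 2 rose, as most sterol enzymes did, 2 fell and 2 did not pass. Srebf1 was at 720, 690 and 703 CPM in control and 389, 458 and 497 CPM with TNF-α (log2 fold change -0.65 ± 0.07 SE; adjusted p = 2.43e-07). All treated libraries lay below the controls, with TNF-α replicate 1 the lowest. Srebf2 was at 252, 238 and 243 CPM in control and 230, 251 and 259 CPM with TNF-α, and the groups overlapped (log2 fold change 0.01 ± 0.05 SE; adjusted p = 0.853). Scap, the escort protein, was at 128, 121 and 125 CPM in control and 96.8, 104 and 112 CPM with TNF-α (log2 fold change -0.26 ± 0.06 SE; adjusted p = 0.00174). Stard4, an intracellular sterol carrier, was at 23.9, 23.9 and 22.7 CPM in control and 32.6, 28.3 and 31.0 CPM with TNF-α (log2 fold change 0.38 ± 0.07 SE; adjusted p = 0.000108). Thus Srebf1 and Scap were lower and Stard4 higher in every treated library. Insig1, a sterol-dependent retention protein, was at 75.0, 77.2 and 80.3 CPM in control and 99.7, 90.2 and 82.7 CPM with TNF-α (log2 fold change 0.23 ± 0.08 SE; adjusted p = 0.0324). Insig2 did not pass, at a log2 fold change of 0.09.

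Among fatty acid enzymes, Elovl6, which lengthens palmitate to stearate, was at 27.4, 27.1 and 28.7 CPM in control and 92.3, 83.3 and 82.9 CPM with TNF-α. This was 3.11-fold higher, with no overlap (log2 fold change 1.64 ± 0.06 SE; adjusted p = 2.69e-13), the highest fold change of the 32 members. Acaca, the acetyl-CoA carboxylase, was at 97.1, 95.6 and 100 CPM in control and 137, 138 and 147 CPM with TNF-α (log2 fold change 0.53 ± 0.05 SE; adjusted p = 1.22e-07). Acly, which makes cytosolic acetyl-CoA from citrate, was at 234, 227 and 244 CPM in control and 286, 263 and 267 CPM with TNF-α (log2 fold change 0.21 ± 0.05 SE; adjusted p = 0.00126). Fads1, a front-end desaturase of polyunsaturated fatty acids, went the other way, at 172, 170 and 175 CPM in control and 143, 150 and 142 CPM with TNF-α (log2 fold change -0.25 ± 0.05 SE; adjusted p = 0.000278). Fasn, the fatty acid synthase, was at 1130, 1030 and 1140 CPM in control and 1070, 1270 and 1400 CPM with TNF-α, and did not pass (adjusted p = 0.0672). Scd1, Scd2 and Fads2 did not pass either, with log2 fold changes of -0.10 to 0.11.

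**Figure D1:**
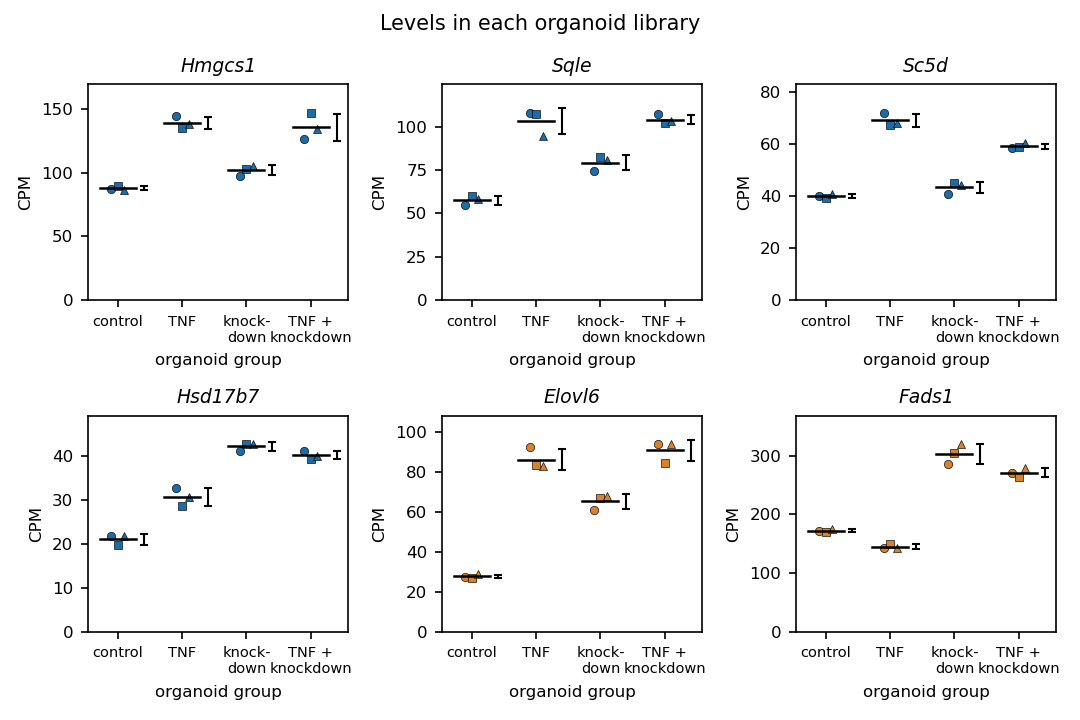
Levels in CPM (counts scaled to library size, vertical axes from 0) of 4 sterol enzymes (blue) and 2 fatty acid enzymes (orange) in the 4 organoid groups. Circles, squares and triangles are replicates 1, 2 and 3, the horizontal line is the group mean and the bar beside it is 1 SD. Elovl6 lies at 27.1 to 28.7 CPM in control and at 82.9 to 92.3 CPM with TNF-α, and Fads1 is highest in the libraries of the knockdown alone.

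Leaving out TNF-α replicate 1 gave 19 members higher and 3 lower, with sterol enzymes at 13 higher and 0 lower and fatty acid enzymes at 5 higher and 1 lower. Without it the knockdown in TNF-α-treated organoids gave 9 members higher and 7 lower, and the interaction 1 positive and 8 negative. Calls of 3 members were lost without single libraries: Tm7sf2 without control replicate 2 (adjusted p = 0.0518) or TNF-α replicate 1 (0.0547) or 2 (0.0779), Ebp without control replicate 1 (0.0821) or 2 (0.127) or TNF-α replicate 1 (0.0814), and Insig1 without control replicate 1 (0.102) or 2 (0.0782) or TNF-α replicate 1 (0.088). With all libraries kept, Tm7sf2 also lost its call with no count filter (0.0679), and Insig1 with a replicate block (0.0505). Supporting cell markers and cell cycle genes moved with the treatment as well. Of 9 supporting cell markers, 5 fell and 0 rose, with a summed level of 8422 to 8758 CPM in control and 3864 to 4783 CPM with TNF-α. Of 10 cell cycle genes, 4 rose and 0 fell, with summed levels of 9.65 to 12.0 and 14.7 to 17.4 CPM. In both lists all genes had counts in every library. Their part in the result was not tested. Adipocyte markers were near 0, with 7 of 9 in the table, a summed level of at most 5.94 CPM in any organoid library, and Adipoq, Cidec, Cfd, Retn, Fabp4 and Pck1 at 0 in at least 1 library.

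In RBM25-depleted organoids, TNF-α again raised sterol enzymes. Of the 18, 11 rose and 0 fell, of 8 fatty acid enzymes 4 rose and 2 fell, and of 6 regulators 2 rose and 0 fell. Over the 32 members 17 rose and 2 fell, where 22.8% of all genes rose and 22.0% fell (44.8% in either direction). This comparison shares no library with that of TNF-α and control. The 11 sterol enzymes that rose were 84.6% of the 13 that rose without the knockdown and 100% of those that rose with it. The estimate was nearer to 0 with the knockdown in 16 of 18 sterol enzymes and 3 of 8 fatty acid enzymes, while the test of that difference passed in 5 of the 18 and 2 of the 8. The median log2 fold change was 0.24 for sterol enzymes and 0.13 for fatty acid enzymes, against -0.01 over all genes.

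Values of the depleted libraries without and with TNF-α follow for the members where the TNF-α effect differed between the arms. The test of that difference, the interaction, is the log2 TNF-α effect with the knockdown minus the effect without it. Over the 32 members it passed as negative in 8 and as positive in 1, where 4.81% of all genes passed as negative and 7.54% as positive (12.3% in either direction). It passed as negative in 5 of 18 sterol enzymes, and the estimate was negative in 15 of the 18. In fatty acid enzymes it passed as negative in 2 of 8, with 4 estimates negative and 4 positive.

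Elovl6 was at 61.1, 66.8 and 67.8 CPM with the knockdown alone and 93.8, 84.6 and 93.9 CPM with both treatments. The TNF-α effect was thus a log2 fold change of 0.48 ± 0.06 (SE) in depleted organoids, against 1.64 without the knockdown, an interaction of -1.16 ± 0.09 (SE; adjusted p = 1.18e-07). Hsd17b7 was at 41.0, 42.6 and 42.6 CPM with the knockdown and 41.1, 39.3 and 39.9 CPM with both, and did not pass for TNF-α in the depleted organoids (log2 fold change -0.07 ± 0.06 SE; interaction -0.61 ± 0.09 SE; adjusted p = 0.000193). Sqle was at 74.2, 82.5 and 80.5 CPM with the knockdown and 107, 102 and 103 CPM with both (interaction -0.44 ± 0.08 SE; adjusted p = 0.00156). For these 3 genes the libraries with both treatments lay at or near the level of TNF-α alone (Elovl6 and Sqle) or of the knockdown alone (Hsd17b7). Sc5d was at 40.8, 45.0 and 44.0 CPM with the knockdown and 58.3, 58.6 and 60.2 CPM with both (interaction -0.34 ± 0.07 SE; adjusted p = 0.00435). In Sc5d the libraries with both treatments lay below all those with TNF-α alone.

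Cyp51 was at 45.0, 48.4 and 46.7 CPM with the knockdown and 60.5, 61.8 and 60.6 CPM with both (interaction -0.29 ± 0.09 SE; adjusted p = 0.0341). Hmgcs1 was at 97.6, 103 and 105 CPM with the knockdown and 126, 147 and 134 CPM with both (interaction -0.25 ± 0.07 SE; adjusted p = 0.0351). Both were the weakest of the 5 interactions among sterol enzymes. Stard4 was at 30.2, 29.7 and 27.9 CPM with the knockdown and 30.9, 28.4 and 28.7 CPM with both, so that its groups overlapped (interaction -0.38 ± 0.09 SE; adjusted p = 0.0127). Scd1 was at 267, 255 and 245 CPM with the knockdown and 201, 205 and 209 CPM with both, a decrease of 0.32 on the log2 scale that was not seen without the knockdown, where the change was 0.03 (interaction -0.35 ± 0.07 SE; adjusted p = 0.00446). Srebf1 alone had a positive interaction. It was at 524, 500 and 497 CPM with the knockdown and 469, 439 and 468 CPM with both, with a TNF-α effect of -0.15 ± 0.07 (SE; adjusted p = 0.0878) in depleted organoids, and the interaction was 0.51 ± 0.10 (SE; adjusted p = 0.00189).

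**Figure D2:**
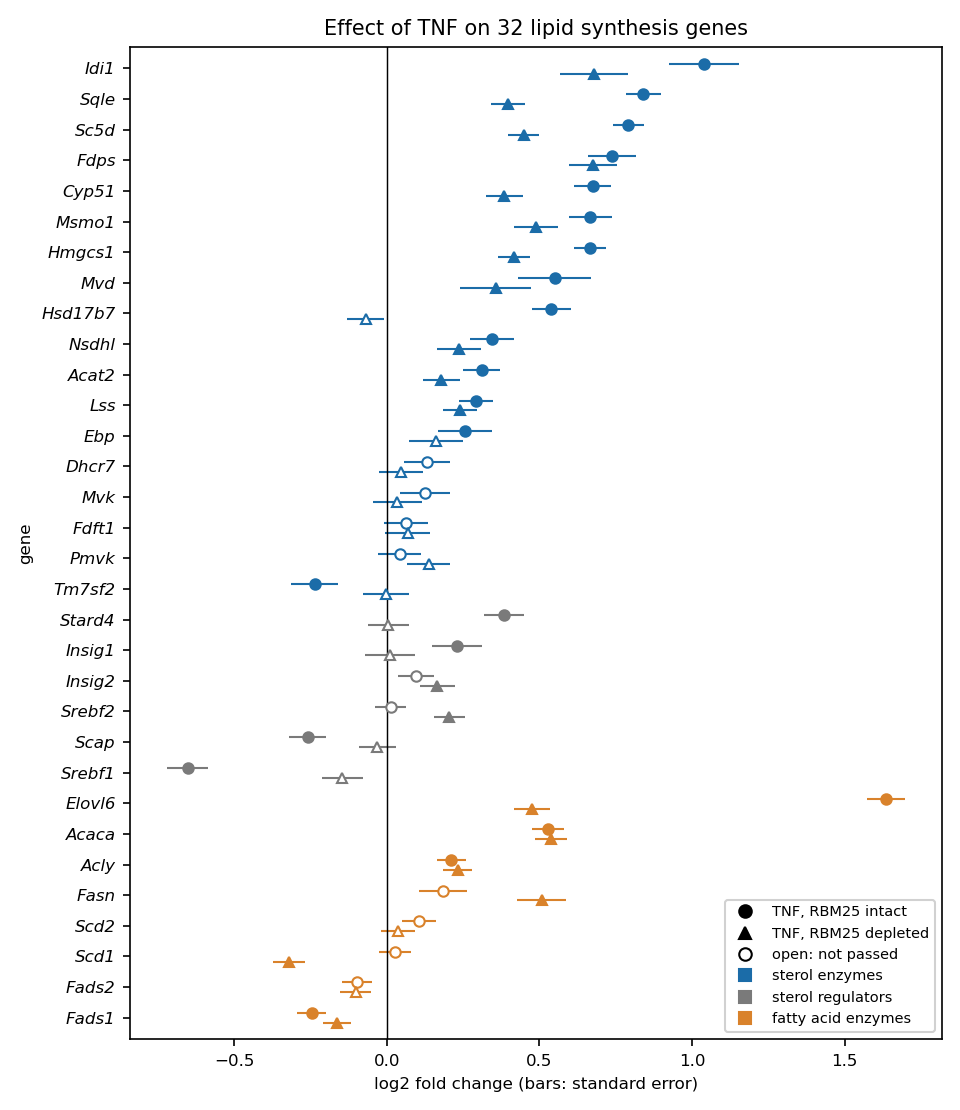
TNF-α effect on each of the 32 members as a log2 fold change (horizontal axis) with its standard error, without the knockdown (circles) and in RBM25-depleted organoids (triangles), with genes on the vertical axis. Filled symbols passed at an adjusted p under 0.05. Most blue triangles lie to the left of their circles, and Elovl6 moves from 1.64 to 0.48.

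In the other 23 members the interaction did not pass, which does not show that their effects were alike: 14 of the 32 had an unadjusted p under 0.05, against 9 that passed. The 5 between were Fasn, Tm7sf2 at 0.23 ± 0.11 (SE; adjusted p = 0.174), Idi1 at -0.36 ± 0.16 (SE; adjusted p = 0.152), Scap at 0.23 ± 0.09 (SE; adjusted p = 0.0906) and Srebf2 at 0.19 ± 0.07 (SE; adjusted p = 0.092). The share of all genes at the unadjusted threshold is not given here. Acaca was at 79.7, 80.0 and 79.8 CPM with the knockdown and 121, 106 and 121 CPM with both, a TNF-α effect of 0.54 ± 0.05 (SE; adjusted p = 1.13e-07) beside 0.53 without the knockdown, and the interaction was 0.01 ± 0.07 (SE). Acly gave 0.23 and 0.21, and Fdps, at 22.2, 27.1 and 26.3 CPM with the knockdown and 40.3, 38.8 and 41.6 CPM with both, gave 0.67 and 0.74. Fasn was at 966, 976 and 977 CPM with the knockdown and 1430, 1270 and 1450 CPM with both (log2 fold change 0.51 ± 0.08 SE; adjusted p = 6.03e-05), and its interaction of 0.32 ± 0.11 (SE) did not pass (adjusted p = 0.071). Srebf2 was at 214, 210 and 217 CPM with the knockdown and 250, 231 and 257 CPM with both (log2 fold change 0.20 ± 0.05 SE; adjusted p = 0.00303), and Insig2 at 60.5, 65.0 and 70.4 against 72.7, 77.8 and 69.2 CPM (log2 fold change 0.17 ± 0.06 SE; adjusted p = 0.0279). A decrease with TNF-α was called for Fads1 in both arms, at -0.25 and -0.16.

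Calls of the interaction were lost for 2 members when single libraries were left out: Hmgcs1 without any 1 control (adjusted p of 0.0846, 0.059 and 0.0869 without replicates 1, 2 and 3), knockdown replicate 2 or 3 (0.0812 and 0.0723) or replicate 1 of both treatments (0.0512), and Cyp51 without any 1 control (0.0908, 0.0633 and 0.0617) or knockdown replicate 2 or 3 (0.092 and 0.0529). For TNF-α in depleted organoids they were lost for Acat2 without knockdown replicate 2 (0.0673) or replicate 2 or 3 of both treatments (0.064 and 0.137), Mvd without knockdown replicate 1 (0.113) or replicate 1 or 3 of both treatments (0.0553 and 0.0856), Nsdhl without knockdown replicate 1 or 3 (0.0585 and 0.0546) or replicate 1 or 3 of both treatments (0.0533 and 0.0605), and Insig2 without knockdown replicate 1 or 2 (0.19 and 0.0704) or replicate 1 or 2 of both treatments (0.0798 and 0.146). With all libraries kept, the Cyp51 interaction was lost with a replicate block (0.0517). For TNF-α in depleted organoids, Acat2 was also lost with no count filter (0.0744). Insig2 was also lost there with DESeq2's size factors (0.0505), its Wald test (0.0549) or only the libraries compared (0.0596). Interferon response genes stood apart in the libraries with both treatments. Of 9 tested, 9 rose with TNF-α in depleted organoids, with a summed level of 208 to 230 CPM with both treatments, 21.5 to 23.7 CPM with the knockdown, 51.5 to 62.1 CPM with TNF-α and 30.9 to 33.0 CPM in control. Isg15, Oas2, Rsad2, Usp18 and Ifi44 were at 0 in at least 1 organoid library. The part of this response in the members' values was not tested.

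The knockdown by itself split the members rather than raising a whole class. Against control, 9 of 18 sterol enzymes rose and 4 fell, 3 of 8 fatty acid enzymes rose and 2 fell, and 3 of 6 regulators rose and 2 fell. Over the 32 members 15 rose and 8 fell, where 24.4% of all genes rose and 28.2% fell (52.6% in either direction). The median log2 fold change was 0.19 for sterol enzymes, 0.14 for regulators and -0.04 for fatty acid enzymes, against -0.03 over all genes. In TNF-α-treated organoids, 4 sterol enzymes rose and 4 fell, 1 fatty acid enzyme rose and 3 fell, and 2 regulators rose. Over the 32 members 7 rose and 7 fell there, where 25.4% of all genes rose and 26.9% fell (52.3% in either direction). The comparisons of the knockdown with and without TNF-α share no library, while both share libraries with the TNF-α comparisons.

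The members higher after the knockdown in both arms were the sterol enzymes Hsd17b7, Dhcr7 and Mvd, the regulators Scap and Insig2, and the desaturase Fads1. Hsd17b7 was 2-fold higher without TNF-α (log2 fold change 1.00 ± 0.06 SE; adjusted p = 2.53e-10) and rose by 0.39 ± 0.06 (SE; adjusted p = 3.37e-05) with it. Dhcr7, the reductase that makes cholesterol from its last precursor, was at 15.5, 15.5 and 15.2 CPM in control and 22.0, 22.0 and 23.1 CPM after the knockdown, and at 15.6, 16.3 and 18.5 against 22.9, 22.9 and 23.5 CPM with TNF-α. Its groups did not overlap in either arm, with log2 fold changes of 0.54 ± 0.07 (SE; adjusted p = 6.01e-06) and 0.46 ± 0.07 (SE; adjusted p = 4.01e-05). Fads1 was at 286, 305 and 320 CPM after the knockdown and 270, 264 and 279 CPM with both, above every library with intact RBM25 in the same arm. Its log2 fold changes were 0.82 ± 0.05 (SE; adjusted p = 7.03e-11) and 0.90 ± 0.05 (SE; adjusted p = 2.53e-11). Scap was at 148, 139 and 139 CPM after the knockdown and 140, 127 and 151 CPM with both (log2 fold changes 0.19 ± 0.06 SE, adjusted p = 0.0126, and 0.42 ± 0.06 SE, adjusted p = 1.32e-05).

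The members lower after the knockdown in both arms were the sterol enzymes Fdft1, Lss and Msmo1 and the fatty acid enzymes Acly and Acaca. Fdft1, the squalene synthase, was at 87.0, 91.1 and 90.0 CPM in control and 64.0, 64.7 and 66.8 CPM after the knockdown, and at 106, 92.3 and 81.3 against 68.8, 64.5 and 71.6 CPM with TNF-α. Its log2 fold changes were -0.46 ± 0.07 (SE; adjusted p = 5.37e-05) and -0.45 ± 0.07 (SE; adjusted p = 6.17e-05). Its exons share 18.3% of their bases with Ctsb on the other strand, and these unstranded reads cannot tell the genes apart there. Lss was at 35.1, 34.4 and 33.9 CPM after the knockdown and 42.1, 41.8 and 38.1 CPM with both (log2 fold changes -0.33 ± 0.06 SE, adjusted p = 6.1e-05, and -0.39 ± 0.06 SE, adjusted p = 1.02e-05). All depleted libraries of Fdft1 and Lss lay below the intact ones of the same arm. Acly was at 183, 176 and 182 CPM after the knockdown and 219, 200 and 216 CPM with both (log2 fold changes -0.38 ± 0.05 SE, adjusted p = 2.34e-06, and -0.36 ± 0.05 SE, adjusted p = 4.86e-06). Acaca fell by 0.29 ± 0.05 (SE; adjusted p = 0.000136) and by 0.28 ± 0.05 (SE; adjusted p = 0.000178) on the log2 scale. The methylsterol oxidase Msmo1 also fell in both arms, at -0.23 and -0.40.

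Several members were raised by the knockdown without TNF-α and did not pass with it. Elovl6 rose by 1.23 ± 0.06 (SE; adjusted p = 1.22e-11) without TNF-α and gave 0.08 ± 0.06 (SE; adjusted p = 0.298) with it. Sqle gave 0.46 ± 0.06 (SE; adjusted p = 2.71e-06) and 0.01 ± 0.06 (SE; adjusted p = 0.872), and Cyp51 0.42 ± 0.06 (SE; adjusted p = 1.31e-05) and 0.13 ± 0.06 (SE; adjusted p = 0.0708). The difference between arms is the interaction already given for these genes. Sc5d gave 0.12 ± 0.05 (SE; adjusted p = 0.0683) without TNF-α and fell by 0.23 ± 0.05 (SE; adjusted p = 0.000928) with it. Srebf1 fell by 0.47 ± 0.07 (SE; adjusted p = 9.65e-06) without TNF-α and gave 0.03 ± 0.07 (SE; adjusted p = 0.708) with it, its depleted libraries lying between 439 and 524 CPM in both arms. Srebf2 fell by 0.19 ± 0.05 (SE; adjusted p = 0.00364) without TNF-α and gave -0.00 ± 0.05 (SE) with it, and Stard4 rose by 0.32 ± 0.07 (SE; adjusted p = 0.000573) and gave -0.06 ± 0.07 (SE). Insig2 rose in both arms, at 0.15 and 0.23. Scd1 rose by 0.19 ± 0.05 (SE; adjusted p = 0.00415) without TNF-α and fell by 0.15 ± 0.05 (SE; adjusted p = 0.0182) with it, where its libraries overlapped. Of the other sterol enzymes, Acat2, Hmgcs1, Mvk, Mvd and Idi1 rose without TNF-α at 0.21 to 0.53 and Pmvk fell at -0.21, and Mvd and Tm7sf2 rose with it, at 0.34 and 0.31. Scd2 and Fads2 passed in no organoid comparison, with 2880 to 3450 CPM and 462 to 541 CPM over the 12 libraries.

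**Figure D3:**
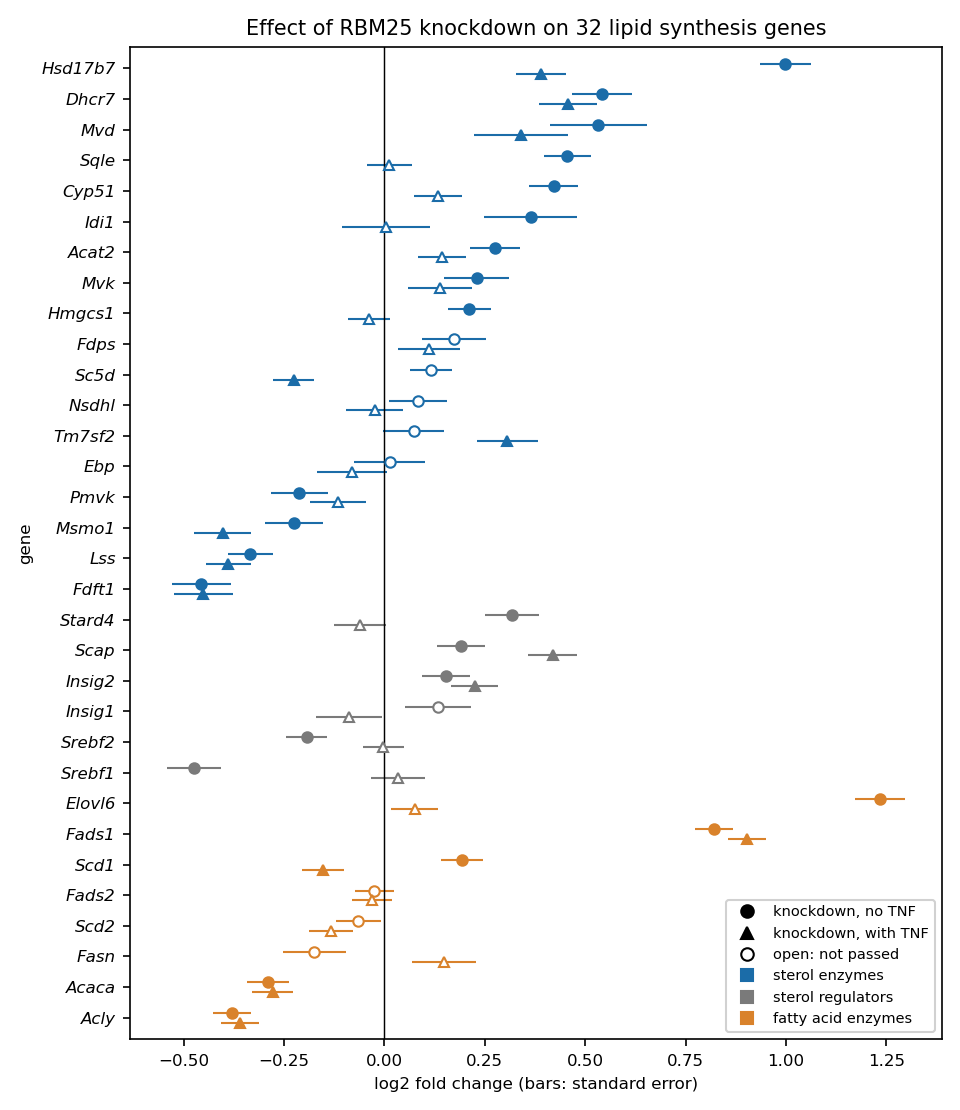
Effect of the RBM25 knockdown on each of the 32 members as a log2 fold change (horizontal axis) with its standard error, without TNF-α (circles) and with TNF-α (triangles), with genes on the vertical axis. Filled symbols passed at an adjusted p under 0.05. Fads1 lies at 0.82 and 0.90, Lss at -0.33 and -0.39, and Elovl6 at 1.23 without TNF-α and 0.08 with it.

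Without TNF-α, knockdown calls were lost when single libraries were left out for Mvk (control replicate 1, adjusted p = 0.0824, or knockdown replicate 2 or 3, 0.0901 and 0.102), Pmvk (control replicate 1, 0.0601, or knockdown replicate 3, 0.0702), Idi1 (control replicate 3, 0.068), Msmo1 (control replicate 2, 0.061, or knockdown replicate 1 or 2, 0.0693 and 0.0727), Scap (control replicate 2, 0.0595) and Insig2 (control replicate 1 or 2, 0.129 and 0.102, or knockdown replicate 2 or 3, 0.0734 and 0.205). With TNF-α they were lost for Mvd (TNF-α replicate 2 or 3, 0.0875 and 0.0866, or replicate 1 or 3 of both treatments, 0.0527 and 0.0803) and Scd1 (TNF-α replicate 1 or 2, 0.0581 and 0.0941, or replicate 1 of both treatments, 0.0589). Some knockdown calls were also lost with all libraries kept. Without TNF-α these were Pmvk (0.0905), Msmo1 (0.0968) and Srebf2 (0.0627) with limma, and Pmvk with no count filter (0.0955). With TNF-α, Scd1 was lost with limma (0.122) or only the libraries compared (0.0742). Other cell markers moved with the knockdown. Of 10 cell cycle genes 8 rose and 0 fell, with a summed level of 27.6 to 32.2 CPM after the knockdown against 9.65 to 12.0 CPM in control. Of 10 hair cell markers 9 rose and 1 fell, with summed levels of 353 to 499 and 147 to 164 CPM, and of 9 supporting cell markers 2 rose and 5 fell, with 6929 to 7010 and 8422 to 8758 CPM. No gene of these 3 lists was at 0 in any organoid library. Their part in the members' values was not tested.

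Set side by side by library, the mean log2(CPM + 1) of the 18 sterol enzymes was 4.86 to 4.87 in control, 5.22 to 5.39 with TNF-α, 4.98 to 5.07 with the knockdown and 5.29 to 5.32 with both. The library with 5.39 was TNF-α replicate 1. The mean of the 8 fatty acid enzymes was 8.13 to 8.20 in control, 8.43 to 8.47 with TNF-α, 8.31 to 8.34 with the knockdown and 8.40 to 8.52 with both. By this mean each treated group lay above control in both classes. For fatty acid enzymes with the knockdown alone, the summed level was 5277 to 5376 CPM against 5331 to 5594 CPM in control, 3 of 8 estimates were positive, and the median log2 fold change was -0.04, with Elovl6 at 1.23 and Fads1 at 0.82. With TNF-α the mean of the fatty acid enzymes held members as far apart as Elovl6 at 1.64 and Fads1 at -0.25.

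**Figure D4:**
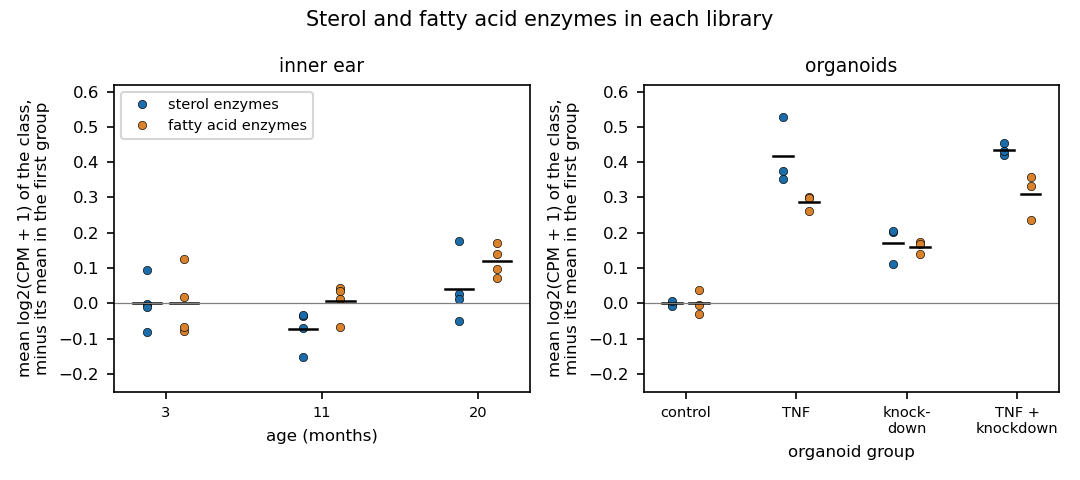
Mean log2(CPM + 1) of the 18 sterol enzymes (blue) and 8 fatty acid enzymes (orange) in each library, less the class mean in the first group of the panel (vertical axis), by age in the inner ear and by organoid group. Each point is 1 library and black lines are group means. In the organoids all treated libraries lie above 0 in both classes, and in the inner ear the sterol enzymes of the 3 ages overlap.

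Genes around the pathway showed no single direction with TNF-α. Of 4 further sterol synthesis genes tested, 1 rose and 0 fell. Of 7 genes that cleave SREBPs or degrade sterol-sensing proteins, 3 rose and 1 fell, among them the protease gene Mbtps2 at a log2 fold change of 0.30 (adjusted p = 0.00763). Of 12 sterol uptake, storage and transport genes, 3 rose and 5 fell, among them Npc1, which exports cholesterol from lysosomes, at -0.53 (adjusted p = 3.71e-08). Of 10 oxysterol and efflux genes, 2 rose and 2 fell, with the cholesterol hydroxylase Cyp46a1 at -1.50 (adjusted p = 4.98e-09) and the exporter Abca1 at 0.43 (adjusted p = 3.17e-06). Of 25 further fatty acid synthesis genes, 7 rose and 10 fell, with the elongase Elovl1 at -0.83 (adjusted p = 2.82e-10) and Hacd2, a dehydratase of the elongation cycle, at 0.82 (adjusted p = 2.12e-09). Of 16 fatty acid oxidation genes, 6 rose and 1 fell. With the knockdown against control, Npc1 fell by 0.75 on the log2 scale (adjusted p = 3.3e-10), Abca1 by 0.91 (adjusted p = 2.15e-10) and the acyl-CoA synthetase Acsl1 by 1.44 (adjusted p = 2.59e-13). The genes named here all fell, but their lists did not fall as a whole in that comparison. Of the uptake, storage and transport genes 6 rose and 3 fell, of oxysterol and efflux genes 6 and 2, and of further fatty acid synthesis genes 8 and 9. Of further sterol synthesis genes 3 rose and 1 fell, of SREBP processing and degradation genes 2 and 1, and of fatty acid oxidation genes 5 and 6. Of all genes tested, 24.4% rose and 28.2% fell.

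In the ageing inner ear few members passed the test, and the desaturases Scd1 and Fads2 had the highest log2 fold changes of those that rose. At 20 against 3 months, 1 of 18 sterol enzymes rose and 1 fell, 1 of 6 regulators rose, and 2 of 8 fatty acid enzymes rose. Over the 32 members 4 rose and 1 fell, where 12.0% of all genes rose and 10.7% fell (22.7% in either direction), so the members' share of calls was not above that of all genes. The median log2 fold change was 0.07 for sterol enzymes, 0.08 for regulators and 0.12 for fatty acid enzymes, against 0.01 over all genes.

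Scd1 was at 607, 601, 680 and 625 CPM at 3 months, 772, 600, 600 and 741 CPM at 11 months, and 868, 1030, 855 and 872 CPM at 20 months. All 20-month libraries lay above all younger ones, with replicate 2 the highest, and the log2 fold change from 3 to 20 months was 0.53 ± 0.10 (SE; adjusted p = 0.00276). Srebf2 was at 137, 150, 165 and 131 CPM at 3 months, 165, 154, 149 and 152 CPM at 11 months, and 181, 169, 192 and 187 CPM at 20 months (20 against 3 months, log2 fold change 0.32 ± 0.07 SE; adjusted p = 0.00841). Its 20-month libraries also lay above all younger ones. Fads2, the first desaturase of polyunsaturated fatty acid synthesis, was at 82.9, 91.5, 106 and 76.4 CPM at 3 months and 108, 128, 114 and 109 CPM at 20 months (log2 fold change 0.36 ± 0.11 SE; adjusted p = 0.0305). Idi1 was at 18.2, 15.8, 18.7 and 15.5 CPM at 3 months and 20.1, 21.1, 26.5 and 18.9 CPM at 20 months (log2 fold change 0.35 ± 0.12 SE; adjusted p = 0.0475). Pmvk, the second mevalonate kinase, was at 44.6, 43.1, 42.1 and 44.9 CPM at 3 months and 36.1, 36.8, 38.8 and 39.6 CPM at 20 months (log2 fold change -0.21 ± 0.07 SE; adjusted p = 0.0388). In these 3 genes too the libraries of the 2 ages did not overlap, though in Fads2 and Idi1 by narrow margins.

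**Figure D5:**
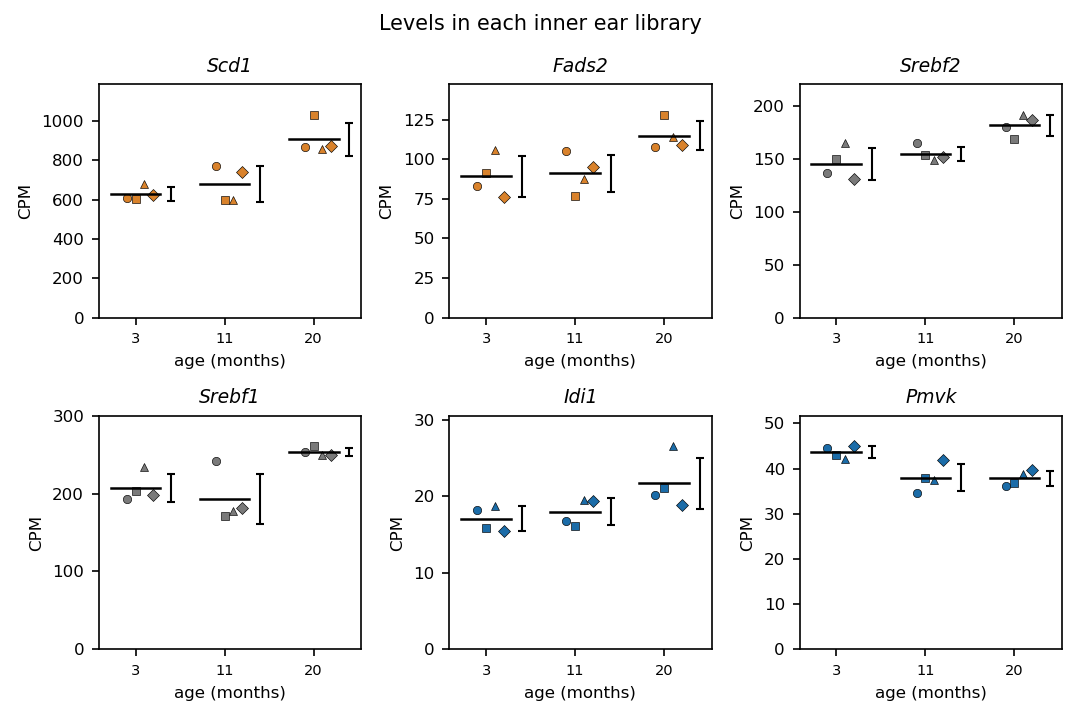
Levels in CPM (vertical axes from 0) of 6 members in inner ear libraries of 3, 11 and 20 months. Circles, squares, triangles and diamonds are replicates 1 to 4, lines are group means and bars are 1 SD, with sterol enzymes in blue, regulators in grey and fatty acid enzymes in orange. Scd1 lies at 601 to 680 CPM at 3 months and at 855 to 1030 CPM at 20 months, while Srebf1 has 1 high library of 242 CPM at 11 months.

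Srebf2 and Scd1 kept their calls for 20 against 3 months under every alternative tried, and the other 3 did not. With all libraries kept, Pmvk lost its call with limma (adjusted p = 0.0738) and Fads2 with a replicate block (0.0574). Idi1 lost its call with DESeq2's size factors (0.0556), no count filter (0.0639) or only the libraries compared (0.0885). All 3 also lost their calls without single libraries. For Pmvk these were 3 months replicate 1, 2 or 4 (adjusted p = 0.0812, 0.0592 and 0.0841) and 20 months replicate 1 or 2 (0.107 and 0.0807), for Idi1 3 months replicate 1, 2 or 4 (0.0723, 0.114 and 0.125) and 20 months replicate 1, 2 or 3 (0.0651, 0.0676 and 0.123), and for Fads2 3 months replicate 1, 2 or 4 (0.0878, 0.0553 and 0.0865) and 20 months replicate 2 (0.0752). Cell markers also moved with age. Of 10 Schwann cell and myelin markers 6 fell and 0 rose, with a summed level of 9193 to 11170 CPM at 3 months and 9991 to 10580 CPM at 20 months, except 5999 CPM in replicate 2. Of 10 macrophage markers 10 rose, with summed levels of 146 to 189 and 273 to 506 CPM. Of 10 neuron markers 8 fell and 0 rose, with summed levels of 11730 to 15050 CPM at 3 months and 7795 to 11290 CPM at 20 months, which did not overlap. Every gene of these 3 lists had counts in every library. Oligodendrocyte markers went the other way from the Schwann cell list: 1 of 7 rose and 0 fell, with 6 estimates positive and a median log2 fold change of 1.09. Their summed levels overlapped, at 66.1 to 282 CPM at 3 months and 52.0 to 395 CPM at 20 months. Of 8 skeletal muscle markers 3 fell and 0 rose, with 17.9 to 129 and 9.32 to 19.2 CPM. Opalin, Ckm and Tnnc2 of these lists were at 0 in at least 1 library. Without 20 months replicate 2, 3 members rose and 0 fell. Of 9 adipocyte markers the summed level was at most 6.86 CPM in any inner ear library, and all but Cidea were at 0 in at least 1 library. The part of these cell types in the members' values was not tested.

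Between 3 and 11 months no member passed edgeR's test, and 4 of 32 had an unadjusted p under 0.05: Acat2, Pmvk, Fdft1 and Nsdhl, all sterol enzymes with log2 fold changes of -0.17 to -0.23. The share of all genes at that unadjusted threshold is not given here, so these 4 are not read as a pattern of the class. DESeq2 and limma also called 0 members. Of all genes, 0.979% rose and 0.580% fell (1.56% in either direction). Between 11 and 20 months 3 members rose and 0 fell, where 7.87% of all genes rose and 7.90% fell (15.8% in either direction). Srebf1 was at 242, 171, 178 and 182 CPM at 11 months and 254, 261, 250 and 250 CPM at 20 months (log2 fold change 0.39 ± 0.10 SE; adjusted p = 0.0221). Its 3-month libraries lay between 193 and 234 CPM, and at 20 against 3 months it did not pass (adjusted p = 0.052). Scd1 and Srebf2 were the others, at 0.42 ± 0.10 (SE; adjusted p = 0.0157) and 0.23 ± 0.07 (SE; adjusted p = 0.0468). These calls were lost without 11 months replicate 2 or 3 for Scd1 (0.0524 and 0.0631), without 11 months replicate 2, 3 or 4 (0.0727, 0.0826 and 0.0623) or 20 months replicate 1 or 4 (0.0547 and 0.0503) for Srebf1, and without any 1 of the 11-month libraries (0.0506, 0.123, 0.157 and 0.128) or 20 months replicate 1, 3 or 4 (0.0945, 0.0719 and 0.104) for Srebf2. The Srebf2 call was also lost with all libraries kept, with DESeq2's size factors (0.0602), no count filter (0.0739) or a replicate block (0.0761). The comparisons of ages share libraries, so their calls are not independent of each other.

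The remaining 26 members passed in no comparison of ages. Their log2 fold changes from 3 to 20 months lay between -0.28 for Elovl6 and 0.31 for Cyp51. Of genes around the pathway at 20 against 3 months, 3 of 7 SREBP processing and degradation genes rose and 0 fell, with Erlin1, which takes part in the degradation of sterol-sensing proteins, at 0.72 (adjusted p = 0.000265), Erlin2 at 0.31 (adjusted p = 0.00304) and Rnf139 at 0.19 (adjusted p = 0.0348). Of 12 uptake, storage and transport genes 1 rose, the acyltransferase Soat1, which stores cholesterol as esters, at 0.47 (adjusted p = 0.000738). Of 10 oxysterol and efflux genes 4 rose and 2 fell, among them Ch25h, a hydroxylase that makes an oxysterol, at 3.68 (adjusted p = 0.000455) and the exporter Abcg1 at -0.44 (adjusted p = 0.00158). Of 25 further fatty acid synthesis genes 2 rose and 3 fell, and of 16 fatty acid oxidation genes 1 rose and 1 fell.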

How the data were processed

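RNA was measured by bulk sequencing in 24 mouse libraries, prepared with a TruSeq kit, per the labels' protocols, that does not mark strand. The authors deposited whole-number counts per gene with no normalization, and FPKM values, which scale reads by gene length and depth. Per the submitters' processing notes, the tools included HISAT2, HTSeq, Trimmomatic and DESeq2, on build mm10. The sources used here do not state versions or settings. All per-sample columns were mapped to a library.

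Each count table was fitted whole in R 4.3.3 with edgeR 4.0.16 (1 coefficient per group, TMM factors, filterByExpr, robust quasi-likelihood tests). Benjamini-Hochberg adjustment ran over every gene tested, at a threshold of 0.05. CPM uses the TMM-scaled library size. FPKM served for levels between genes and, as log2(FPKM + 1), for an alternative with limma 3.58.1. The other alternatives were DESeq2's size factors within edgeR, the Wald test of DESeq2 1.42.0, no count filter, only the libraries compared, a replicate block, and each library left out in turn. The fit was checked on simulated data with known changes in genes drawn from all those tested. For 20 against 3 months it called 2% of 1.25-fold, 52% of 1.5-fold and 65.3% of 2-fold changes, and 3.67% of calls were false. For TNF-α against control these were 30.6%, 69.4%, 71.4% and 4.44%, and for the interaction 10.2%, 55.3%, 62% and 7.14%. Far fewer genes were changed in the simulation than were called in the data, which makes the adjusted threshold stricter there. The genes drawn also included some with lower counts than any member. These rates are therefore not those of the members. Figures were drawn with matplotlib 3.10.9.

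The members, the lists and the tests were chosen with earlier results of these data known. A member was given in every library where it passed in a comparison of that experiment and was among the 4 smallest p-values of its role group there. Other genes were named only from the lists, at most 3 per list and comparison. Promoters are RefSeq entries on GRCm38.p6, and exon overlaps are from GENCODE vM21. Of the members, Fdps (26.7%), Fdft1 (18.3%), Scap (13.2%), Hmgcs1 (12.1%), Tm7sf2 (12.1%) and Idi1 (9.22%) share the given percent of exon bases with another gene, so their counts are less certain.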

Additional observations from a re-analysis of the deposited data

Results flagged for a closer look

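In 7 of 96 combinations of a member and an age, 1 library stood apart from the other 3 by more than Dixon's 95% critical value, which chance alone passes in about 1 of 20 groups. Fdft1 was at 91.9 CPM in 3 months replicate 3, against 76.4 to 78.7 CPM. Sqle was at 72.8 CPM in 20 months replicate 3, against 56.2 to 57.9 CPM. Sc5d was at 73.1 CPM in 3 months replicate 4, against 81.6 to 82.3 CPM. In 11 months replicate 1, Srebf1 was at 242 CPM, against 171 to 182 CPM, and Fasn was at 368 CPM, against 324 to 329 CPM. Stard4 was at 29.4 CPM in 11 months replicate 3, against 26.6 to 26.8 CPM. Scd1 was at 1030 CPM in 20 months replicate 2, the library low in myelin markers, against 855 to 872 CPM.

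The TNF-α effect differed between depleted and intact organoids by the interaction test in 9 members. The log2 difference was -1.16 for Elovl6, -0.61 for Hsd17b7, -0.44 for Sqle, -0.38 for Stard4, -0.35 for Scd1, -0.34 for Sc5d, -0.29 for Cyp51, -0.25 for Hmgcs1 and 0.51 for Srebf1.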

How the results depend on the processing

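Of 95 calls of members over the 8 comparisons, 71 passed under every alternative, 24 were lost under at least 1, and 0 changed sign. With limma on log2(FPKM + 1), members lower numbered 0 in place of 1 at 20 against 3 months and 5 in place of 8 for the knockdown against control. With the Wald test of DESeq2, members lower with TNF-α in depleted organoids numbered 4 in place of 2, and positive interactions 2 in place of 1. The causes were not tested. With 1 library left out, members higher at 20 against 3 months ranged from 2 to 5 and lower from 0 to 3, higher at 20 against 11 months from 0 to 4, and positive interactions from 1 to 3. Rescaling FPKM to a common sum moved 26 of 64 group levels by more than 1 SD, and none by more than 5.41%. Deviations of same-numbered replicates correlated at -0.345 to 0.371 in the inner ear and -0.116 to 0.292 in the organoids, with 4 of 12 and 2 of 18 pairs over 0.1. Libraries of different numbers were not correlated for reference, so these values do not settle whether the replicates were paired. A replicate block gave 3 members higher and 1 lower at 20 against 3 months, 17 and 4 for TNF-α against control, 15 and 8 for the knockdown against control, and 1 positive and 7 negative interactions. Every member had at least 271 reads in every library. The biological coefficient of variation was 19.8% between inner ear libraries and 8.04% between organoid libraries, so small changes with age are harder to detect.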
